A study of Mus musculus with 170 samples.

Results

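Cytochrome c oxidase, complex IV of the respiratory chain, has several nuclear subunits that exist as a widely used isoform and an alternative isoform. The 8 genes described here form 4 such pairs, Cox4i1 with Cox4i2, Cox6a1 with Cox6a2, Cox7a2 with Cox7a1 and Cox8a with Cox8b, and were taken by name from the 40549 genes of the table. The set was chosen by measured values of these same cells, in which Cox4i2 had already stood out between the genotypes, so every difference below is a description and none was tested. Single cells came from the ventricles of E9.5 mouse hearts on a C57BL/6 background, and their transcripts were amplified by Smart-seq2, a full-length cDNA protocol for single cells. The labels call the control cells wild type, and the study's methods give them 2 floxed Dgcr8 alleles and the Rosa26 mT/mG membrane reporter without any Cre. Conditional knockout (cKO) cells, labelled Mesp1Cre/+; Dgcr8-/-, had the same reporter and floxed alleles together with Cre expressed from the Mesp1 locus, which acts in the mesoderm that forms the heart and vessels and not in cardiomyocytes alone. Dgcr8 is the partner of Drosha in cutting primary microRNA transcripts.

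Complex IV passes electrons from cytochrome c to oxygen. Its catalytic core is encoded by the mitochondrial genome, and the nuclear subunits around it tune its activity and stability. Cox4i2 is known as the isoform induced by low oxygen and used in lung and oxygen-sensing cells, whereas Cox6a2, Cox7a1 and Cox8b are the isoforms of contractile muscle that gain ground as the rodent heart matures. Cox4i1, Cox6a1, Cox7a2 and Cox8a serve most tissues.

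The table held 74 control and 69 cKO cells in 2 sequencing batches, with 2063 to 14139 detected genes (TPM above 0) per cell. The unit was TPM, which corrects for transcript length and sums to about the same total in each cell, so sequencing depth was unknown. Because the labels name no embryo, each genotype counted as 1 sample, the cells were not replicates, and the SDs given are the scatter across cells. Clustering on 55 marker genes, none of them a respiratory chain gene, gave 93 cardiomyocyte-like cells that had 15 of 15 cardiomyocyte markers raised. Of them 27 were control cells (19 from batch 1, 8 from batch 2) and 66 were cKO cells (33 from each batch), and genotypes were compared only here. In these cells the median number of detected genes was 9302 in control and 8686 in cKO, and mitochondrially encoded transcripts took a median of 6.30% of TPM in control and 2.95% in cKO. The summed TPM of 13 endothelial markers had a median of 4.23 in control cells (range 0 to 8.08) and 5.76 in cKO cells (range 1.91 to 8.78) as log2(TPM + 1), with 2 of the 13 markers detected in most cells of either genotype. The part that these differences have in the results was not tested. Dgcr8 itself reached a TPM of 1 in 14 of 27 control and 21 of 66 cKO cells. Xist reached that level in 63 of 66 cKO cells and in 0 of 27 control cells (a count of 0 allows at most 11.1%), so the genotypes cannot be told apart from cells that differ in Xist.

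Within the cardiomyocyte-like cells, Cox4i2 was the member that separated the genotypes. It lies on chromosome 2 (GRCm38, 152754173 to 152765037, plus strand) and has 5 exons. In control cells its log2(TPM + 1) ran from 0 through a median of 0.81 to 8.26, and 17 of 27 cells were under a TPM of 1. In cKO cells it ran from 0 through a median of 8.08 to 10.60, with 6 of 66 cells under a TPM of 1. The genotypes overlapped, yet 30 of the 66 cKO cells lay above the highest control cell. A level of at least 4 was seen in 56 cKO cells and in 6 control cells, and few cells of either genotype, 4 and 4, lay between that level and a TPM of 1. Cox4i2 was therefore either plainly present or close to absent in most cells.

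The mean log2(TPM + 1) of Cox4i2 was 1.76 ± 2.46 (SD, 27 cells) in control and 7.24 ± 2.98 (66 cells) in cKO, a difference of 5.48. Within batch 1 the means were 1.31 and 7.09, and within batch 2 they were 2.82 and 7.38. On the linear scale the mean was 23.1 TPM in control and 407 TPM in cKO. The share of cells at a TPM of at least 1 was 37.04% in control (exact 95% CI 19.4 to 57.6) and 90.9% in cKO (81.3 to 96.6), where the interval covers counting error only. By batch, 6 of 19 and 4 of 8 control cells reached it, against 30 of 33 cKO cells in each batch. Cells that share the first number in their titles gave cKO means from 4.21 to 8.97 over 12 numbers, and control means from 0 to 6.24 over 11 numbers with 1 to 5 cells each. The highest control means came from numbers with 1 cell. The 6 cKO cells without Cox4i2 fell under 4 of these numbers, and their detected genes ranged from 4468 to 9851.

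**Figure D1:**
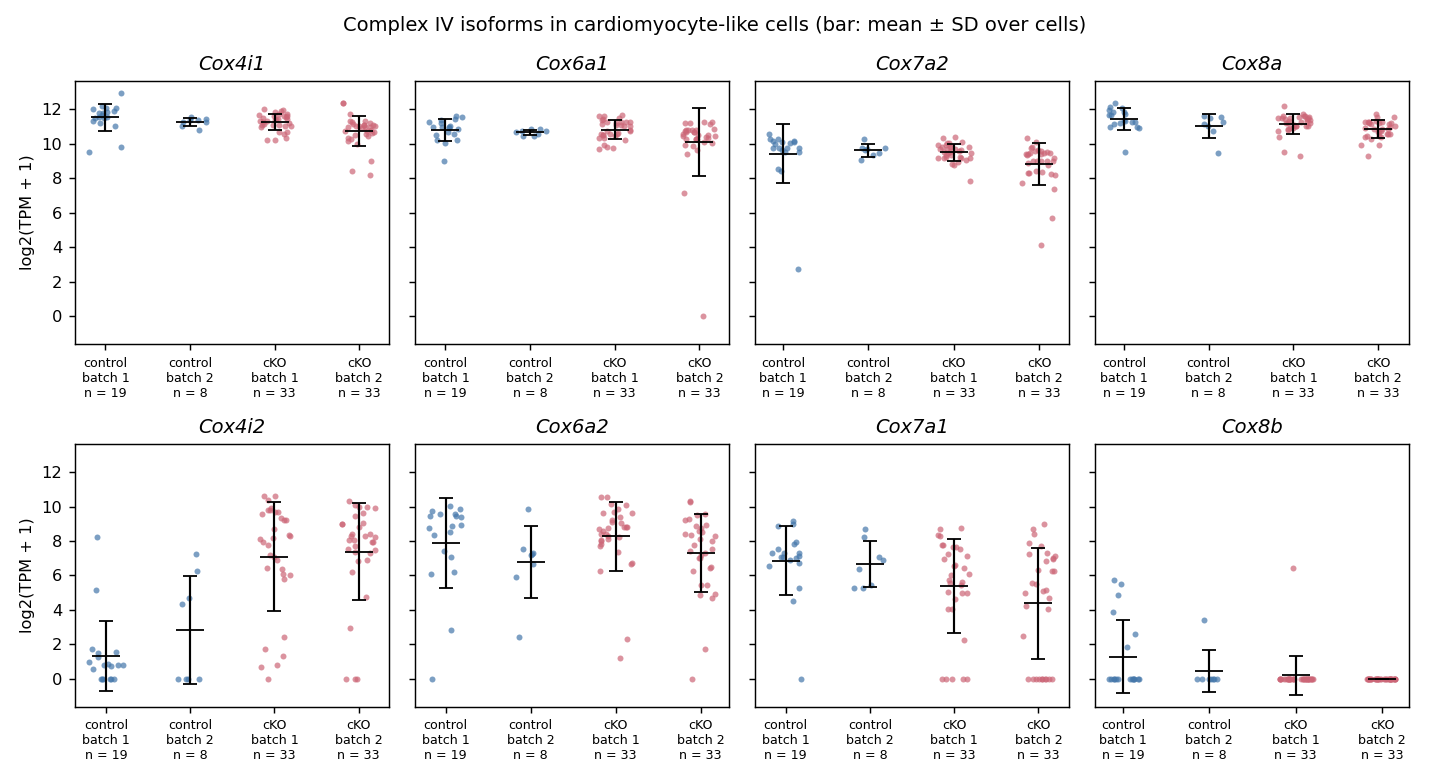
Level of each isoform as log2(TPM + 1) in cardiomyocyte-like cells, by genotype and sequencing batch. Each point is a cell and the bar is the mean ± SD over cells; the upper row holds the widely used isoforms and the lower row the alternative ones. Most cKO cells lie at or above 4 for Cox4i2 (56 of 66) and most control cells lie below (21 of 27), while Cox7a1 has 15 of 66 cKO cells under a TPM of 1.

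Of the 15061 genes with TPM above 0 in more than 10 cardiomyocyte-like cells, Cox4i2 had the largest pooled difference. The next in order were P4ha2, a collagen prolyl hydroxylase subunit, at 5.14, and Mir351, an annotated microRNA hairpin whose processing needs Dgcr8, at 4.82. By batch the order was different, since P4ha2 had 4.95 and 4.94, Cox4i2 5.78 and 4.56, and Mir351 6.02 and 2.81. Across all genes, 2.89% were at least 1 log2 unit higher in cKO in each batch, and 2.65% were at least 1 log2 unit lower. Among the members, 7 of 8 entered this table, with Cox8b left out because only 8 of 93 cells had it. Of those 7, 1 (Cox4i2) was past the higher limit and 1 (Cox7a1) past the lower limit in each batch. Because the members were picked from this contrast, these counts say nothing about the set. The median difference of the 7 was −0.32, against 0.06 over all genes.

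Cox4i1, the widely used partner of Cox4i2, was the more abundant of the pair in nearly all cells. It lies on chromosome 8 (120668222 to 120674207, plus strand). Its log2(TPM + 1) ran from 9.51 through 11.51 to 12.95 in control cells and from 8.18 through 11.10 to 12.40 in cKO cells. Its mean was 11.46 ± 0.68 in control and 11.01 ± 0.75 in cKO, with differences of −0.28 in batch 1 and −0.51 in batch 2. In the pooled cells, 3 of 66 cKO cells lay below the control range, and the difference was smaller than the SD of either genotype. In batch 2, 14 of 33 cKO cells lay below and 3 above all 8 control cells, and the difference exceeded the control SD of 0.24. With the cells chosen in other ways (4 clusters, or a gate on markers) Cox4i1 was higher in cKO, by 0.42 and 0.32, so no direction is given for it.

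Taken within each cell, the log2 ratio of Cox4i2 to Cox4i1 was the value that differed most among the 4 pairs. In control cells it ran from −12.41 through a median of −10.94 to −3.78. In cKO cells it ran from −12.40 through a median of −2.92 to 0.13. More cKO cells stood clear of the control range for the ratio than for the level of Cox4i2, with 42 of 66 above the highest control cell. The means were −9.70 ± 2.54 and −3.77 ± 2.94, a difference of 5.94 that was 6.06 in batch 1 and 5.08 in batch 2. Cox4i2 exceeded Cox4i1 in 1 of 66 cKO cells and in 0 of 27 control cells. As a share of the TPM of the pair, Cox4i2 had a median of 0.0217% in control (highest cell 6.79%) and 11.6% in cKO (highest cell 52.2%). The log2 of the summed TPM of the pair was 11.47 in control and 11.25 in cKO, so the sum of both transcripts differed far less than the balance between them.

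**Figure D2:**
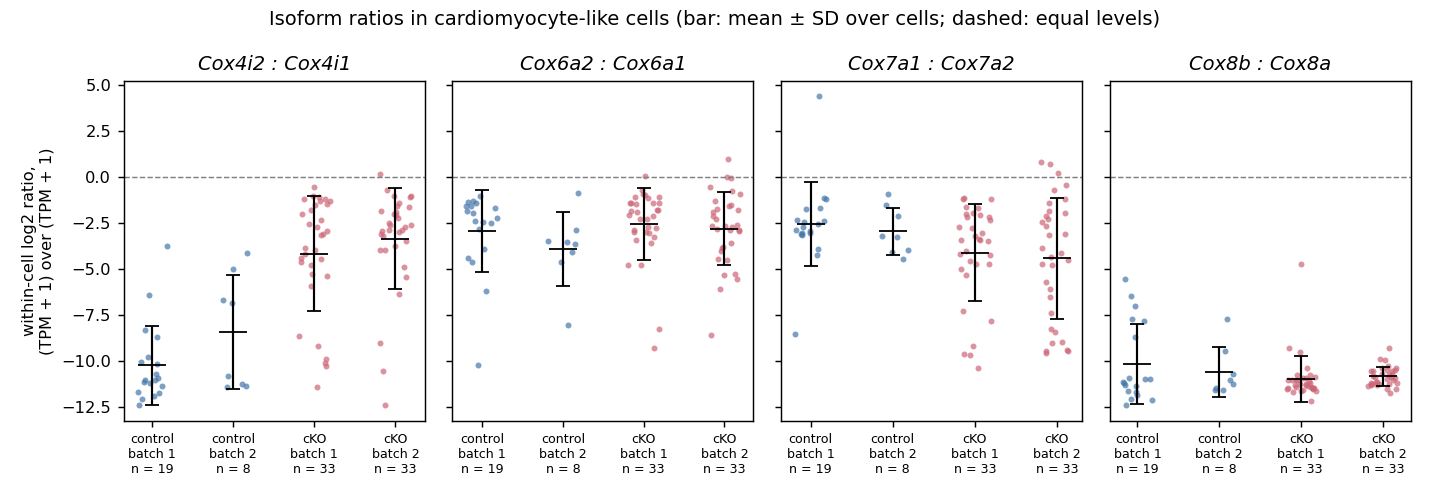
Within-cell log2 ratio of the alternative to the widely used isoform in cardiomyocyte-like cells, by genotype and batch. Points are cells, bars the mean ± SD over cells, and the dashed line marks equal levels. The Cox4i2 to Cox4i1 ratio has means of −9.70 in control and −3.77 in cKO, and few cells lie above the line in any pair. The other 3 pairs overlap over most of their pooled ranges. In batch 2, 15 of 33 cKO cells lie below and 5 above all 8 control cells for Cox7a1 to Cox7a2.

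Among the muscle isoforms, Cox7a1 was lower in cKO cells. It lies on chromosome 7 (30184144 to 30186078, plus strand) and encodes the heart and skeletal muscle form of subunit 7a. In control cells its log2(TPM + 1) ran from 0 through 7.07 to 9.14, and in cKO cells from 0 through 5.61 to 9.01. The gene was listed at 0 in 15 of 66 cKO cells and in 1 of 27 control cells, and through that control cell, from batch 1, the pooled control range held all cKO cells. In batch 2, 17 of 33 cKO cells lay below all 8 control cells and 1 lay above. The share of cells with a TPM of at least 1 was 96.3% in control (95% CI 81.03 to 99.9) and 77.3% in cKO (65.3 to 86.7). The mean was 6.80 ± 1.81 in control and 4.89 ± 3.01 in cKO, a difference of −1.92, with −1.47 in batch 1 and −2.28 in batch 2. It was −0.37 with cells chosen by a marker gate, −0.87 with 4 clusters and −0.80 as the log2 ratio of mean TPM. Of the 15 cKO cells at 0, 5 were from batch 1 and 10 from batch 2. Their detected genes ranged from 4468 to 9851, with 8204 as the median. For all cardiomyocyte-like cells of batches 1 and 2, the medians were 9845 and 7786 (cKO) and 8458 and 9704 (control). Whether missed transcripts account for these values of 0 was not tested. In order of differences Cox7a1 was number 139 from the lowest of 15061 genes.

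Cox7a2, the partner of Cox7a1, lies on chromosome 9 (79755361 to 79759878, minus strand). Its log2(TPM + 1) ran from 2.74 through 9.74 to 10.59 in control and from 4.14 through 9.40 to 10.39 in cKO, and its mean difference was 0.08 in batch 1 and −0.79 in batch 2. The log2 ratio of Cox7a1 to Cox7a2 ran from −8.51 through −2.89 to 4.37 in control and from −10.39 through −3.46 to 0.83 in cKO. Its means were −2.68 ± 2.03 and −4.28 ± 2.97, and its difference of −1.60 was −1.55 in batch 1 and −1.49 in batch 2. That was smaller than the SD across cells in the pooled cells and in batch 1. In batch 2 the difference exceeded the control SD of 1.28 but not the cKO SD of 3.31. The size depended on cells at or near 0, since the difference of the medians was −0.57 and the log2 ratio of mean TPM differed by −0.41. Selecting cells by a marker gate instead of clusters gave −0.79.

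The 250 bases before the RefSeq start of this pair are shown because the muscle form and the widely used form differ here in a short motif that is common at the promoters of nuclear respiratory genes. The sequences are those of RefSeq (GRCm38.p6), written 5′ to 3′ on the strand of the gene. The RefSeq starts lie inside the genes as GENCODE places them, so the last 27 bases of the Cox7a1 window and the last 25 of the Cox7a2 window fall within the coordinates given above. Capitals mark CCGGAA or its reverse complement TTCCGG, a 6-base form of the site bound by ETS factors such as GABP. Shorter forms were not marked or counted, and GGAA or its reverse complement occurs in both windows.
Cox7a1, chr7:30183921-30184170, plus strand: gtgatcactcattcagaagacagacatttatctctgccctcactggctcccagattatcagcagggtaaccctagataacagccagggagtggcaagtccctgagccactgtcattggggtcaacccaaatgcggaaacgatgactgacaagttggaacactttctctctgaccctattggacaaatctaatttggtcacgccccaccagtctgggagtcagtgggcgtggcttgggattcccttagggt
Cox7a2, chr9:79759854-79760103, minus strand: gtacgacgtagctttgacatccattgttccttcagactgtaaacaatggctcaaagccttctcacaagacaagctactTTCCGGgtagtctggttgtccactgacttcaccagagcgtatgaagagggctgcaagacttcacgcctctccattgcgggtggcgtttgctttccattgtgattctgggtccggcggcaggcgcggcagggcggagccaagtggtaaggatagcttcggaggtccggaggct
Cox7a2 held 1 match and Cox7a1 none. Of the 5 members in the promoter table, Cox6a1 also held 1, and Cox8a and Cox8b held none. Promoters of Cox4i1, Cox4i2 and Cox6a2 were not in that table, so no motif was searched for in them. The motif, read on both strands, occurred in 12.03% of 32851 promoter windows of that length. ACGTG, the core of the hypoxia response element, read on both strands, was found in 1 of the 5 windows, that of Cox8b, and in 16.6% of all windows. The motifs were chosen with the values of the members known, and a match describes letters only.

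Cox6a2, the muscle isoform of subunit 6a, was similar in the cardiomyocyte-like cells of both genotypes. It lies on chromosome 7 (128205435 to 128206387, minus strand). Its log2(TPM + 1) ran from 0 through 8.34 to 10.04 in control and from 0 through 8.34 to 10.55 in cKO. The pooled ranges were similar, with 6 of 66 cKO cells above the highest control cell. The means were 7.56 ± 2.48 and 7.78 ± 2.16, and the difference was 0.38 in batch 1 and 0.53 in batch 2. Its sign was not stable, since the difference was −0.04 in cells with at least 7000 detected genes and −0.32 in cells with under 10% mitochondrial TPM, a limit chosen after the data were seen.

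Cox6a1, on chromosome 5 (115345642 to 115348981, minus strand), ran from 9.02 through 10.85 to 11.64 in control cells and from 0 through 10.65 to 11.66 in cKO cells on the log2(TPM + 1) scale. A single cKO cell was listed at 0. The mean difference was 0.0003 in batch 1 and −0.56 in batch 2. The log2 ratio of Cox6a2 to Cox6a1 had means of −3.22 ± 2.17 in control and −2.68 ± 1.96 in cKO, with medians of −2.52 and −2.30. Cox6a2 made up a median of 14.8% of the TPM of the pair in control and 16.8% in cKO, and it exceeded Cox6a1 in 0 of 27 and 2 of 66 cells. The difference of the ratio, 0.53 (0.38 in batch 1 and 1.09 in batch 2), was smaller than the SD across cells and was −0.11 in cells with under 10% mitochondrial TPM. A stable shift in this pair was thus not detectable.

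Cox8b, the muscle form of subunit 8, was rare in these cells. It lies on chromosome 7 (140898945 to 140900446, minus strand). It reached a TPM of 1 in 7 of 27 control cells, 25.9% (95% CI 11.1 to 46.3), with a highest log2(TPM + 1) of 5.74. It did so in 1 of 66 cKO cells, 1.52% (0.0384 to 8.16), and that cell had 6.46. By batch, 6 of 19 and 1 of 8 control cells had it, against 1 of 33 and 0 of 33 cKO cells, where a count of 0 allows at most 9.09% (3 cells of the total; the exact 95% interval reaches 10.6%). The mean was 1.03 ± 1.91 in control and 0.10 ± 0.79 in cKO, and the median was 0 in both.

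Cox8a, its partner on chromosome 19 (7215153 to 7217616, minus strand), was among the most abundant members. It ran from 9.49 through 11.31 to 12.40 in control and from 9.29 through 11.12 to 12.20 in cKO on the log2(TPM + 1) scale, and its mean differences were −0.29 and −0.19 in batches 1 and 2. The log2 ratio of Cox8b to Cox8a had means of −10.29 ± 1.95 and −10.90 ± 0.96 and medians of −11.17 and −11.07. With Cox8b at 0 in most cells, this ratio mainly mirrored the level of Cox8a.

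The share of each isoform also varied among the cell classes of the control heart. Cox6a2 and Cox7a1 had mean levels of 7.56 and 6.80 in control cardiomyocyte-like cells, but 1.197 and 1.25 in 22 endothelial-like cells (13 of 13 endothelial markers raised) and 1.10 and 1.93 in 13 cells of an unnamed cluster led by Upk3b and Tcf21, which carried epicardial and mesenchymal markers. Neither isoform served as a marker, yet both followed the cardiomyocyte class. The widely used isoforms varied less between these 3 classes, from 10.41 to 11.46 for Cox4i1, from 9.84 to 10.77 for Cox6a1, from 8.75 to 9.48 for Cox7a2 and from 9.98 to 11.32 for Cox8a.

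The pooled mean of Cox4i2 was low in every control class. It was 0.77 ± 1.63 in endothelial-like cells, 1.05 ± 1.60 in the cluster led by Upk3b and Tcf21, 1.205 ± 2.06 in 5 erythroid-like cells and 1.76 ± 2.46 in cardiomyocyte-like cells. These 4 levels did not differ beyond their spread. Of the first 3 classes, 5 of 22, 6 of 13 and 2 of 5 cells had a TPM of 1 or more. Among control cardiomyocyte-like cells of batch 2, 4 of 8 did, with a highest value of 7.26. The mean level of 7.24 in cKO cardiomyocyte-like cells lay above the mean of each control class. Over all cells, where control cells of other classes enter, the level of Cox4i2 still differed by 5.81, whereas that of Cox7a1 became 1.27 higher in cKO, with 66 of 69 cKO cells but 27 of 74 control cells being cardiomyocyte-like.

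**Figure D3:**
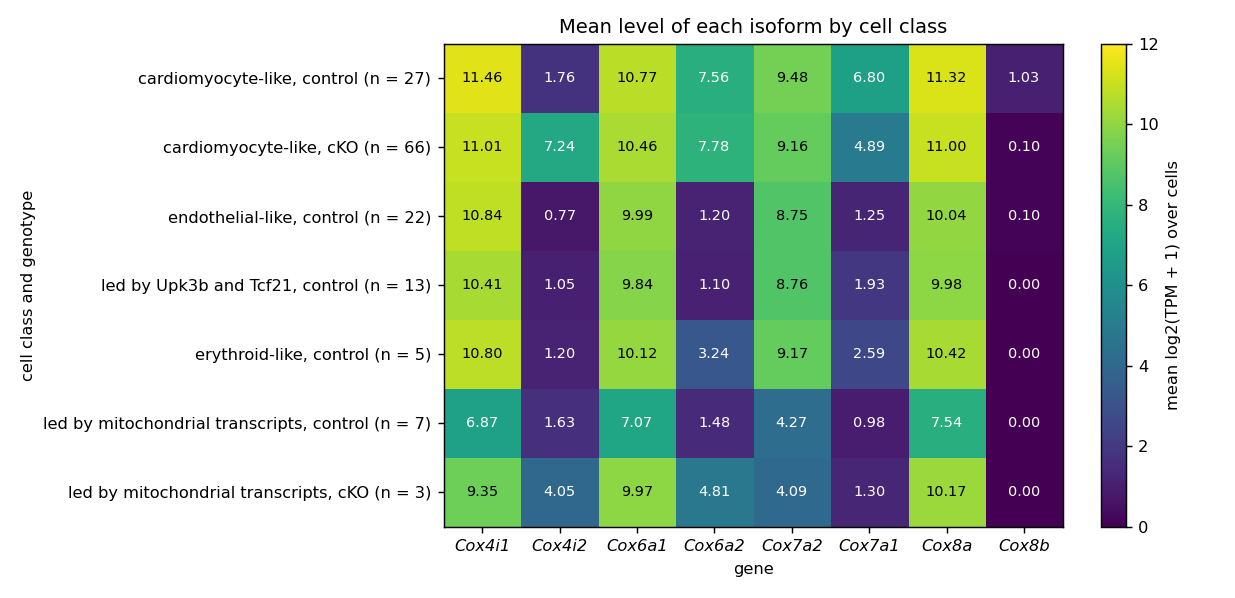
Mean log2(TPM + 1) of the 8 isoforms (columns) in each cell class and genotype (rows, with the number of cells), pooled over batches. Cox6a2 and Cox7a1 are high in cardiomyocyte-like cells (7.56 and 6.80 in control), and Cox4i2 has its highest mean in cKO cardiomyocyte-like cells (7.24).

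In the cells as clustered here, most of the remaining nuclear subunits of complex IV had lower means in cKO, by less than 1 log2 unit pooled. Of 11 genes in that list, 9 entered the table, and Cox7b2 and Cox8c were listed at 0 in all cardiomyocyte-like cells. None of the 9 was past 1 log2 unit in each batch in either direction, which with 2.89% and 2.65% of all genes past these limits says nothing about the list. Below 0 in both batches were 7 of 9, against 24.8% of all genes, and the median difference was −0.50, against 0.06 over all genes. As the list was chosen with earlier results of these data known, these values say nothing about it as a set. Its values were not recomputed with the cells chosen in other ways, where Cox4i1, Cox6a1, Cox7a2 and Cox8a changed sign. No direction is therefore given for the list. Cox5a, which joins subunit 4 early in assembly, had the lowest value, with means of 10.50 in control and 9.51 in cKO. Cox6b1 differed by −0.74, Cox7b by −0.67, Cox6c by −0.50, Cox7c by −0.42, Cox5b by −0.22, Ndufa4 by −0.17, and the sparse testis isoform Cox6b2 by −0.90. Cox7a2l, a supercomplex factor related to subunit 7a, was near 0 at 0.04.

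Of the 3 mitochondrially encoded subunits, mt-Co1, which holds the site of oxygen reduction, was past the lower limit in each batch, where 2.65% of all genes were. Its means were 12.49 in control and 10.94 in cKO, with differences of −1.36 and −1.63. mt-Co3 differed by −0.49 and −1.02, and mt-Co2 by −0.29 and 1.01, so the sign of mt-Co2 changed between batches. These genes too were listed with earlier results of these data known, so the count says nothing about them as a set. Their values were not recomputed with the cells chosen in other ways. Smart-seq2 primes on poly(A), and the mitochondrial share of TPM was lower in cKO cells as a whole, as given above.

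Among 23 assembly and copper delivery factors, 22 entered the table, none was past 1 log2 unit in each batch (2.89% of all genes were higher and 2.65% lower), and 13 were below 0 in both batches (24.8% of all genes). Their median difference was −0.64, with −0.14 in batch 1 and −1.38 in batch 2, where all genes had 0.17 and −0.17. In batch 2 the median number of detected genes was 7786 in cKO cells and 9704 in control cells, and the part this has in the result was not tested. The list was chosen with earlier results of these data known, so its counts say nothing about it as a set. Its values were not recomputed with the cells chosen in other ways. The lowest were Surf1, an assembly factor for subunit 1, at −1.34, and Cox20, a chaperone of subunit 2, at −1.33. The highest were the copper chaperone Sco2 at 0.54, with −1.39 in batch 2, and Cmc1 at 0.39.

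Genes tied to Cox4i2 in other tissues, or to hypoxia, were examined as a list of 8. Hif1a, the oxygen-regulated subunit of HIF-1, had means of 5.93 in control and 5.82 in cKO, with differences of 0.44 in batch 1 and −0.83 in batch 2. Its relative Epas1 had means of 0.42 and 0.45, with differences of 0.08 and −0.30, so each gene changed sign between batches. Both are controlled largely at the protein level, which was not measured. Ndufa4l2, a HIF-1 target and paralogue of Ndufa4, was 0.69 in control and 3.47 in cKO. It was the 1 gene of the list past the higher limit in each batch (3.03 and 2.51), where 2.89% of all genes were. Higd1a, a complex IV partner induced by hypoxia, differed by 0.98 and 1.07 in batches 1 and 2. Lonp1, a matrix protease linked to turnover of Cox4i1 protein, differed by 2.05 and 0.77.

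Of the transcription factors known from the oxygen-responsive element of Cox4i2, Cxxc5 was higher in cKO in both batches, by 0.72 and 1.28. Rbpj had differences of 0.78 and −0.41, and Chchd2 of 0.50 and 0.03. In the list of 8 as a whole, 5 genes were above 0 in both batches, against 30.98% of all genes, and none was below 0 in both, with a median of 0.68. Because the list was chosen with earlier results of these data known, these counts say nothing about it as a set. Its values were not recomputed with the cells chosen in other ways.

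**Figure D4:**
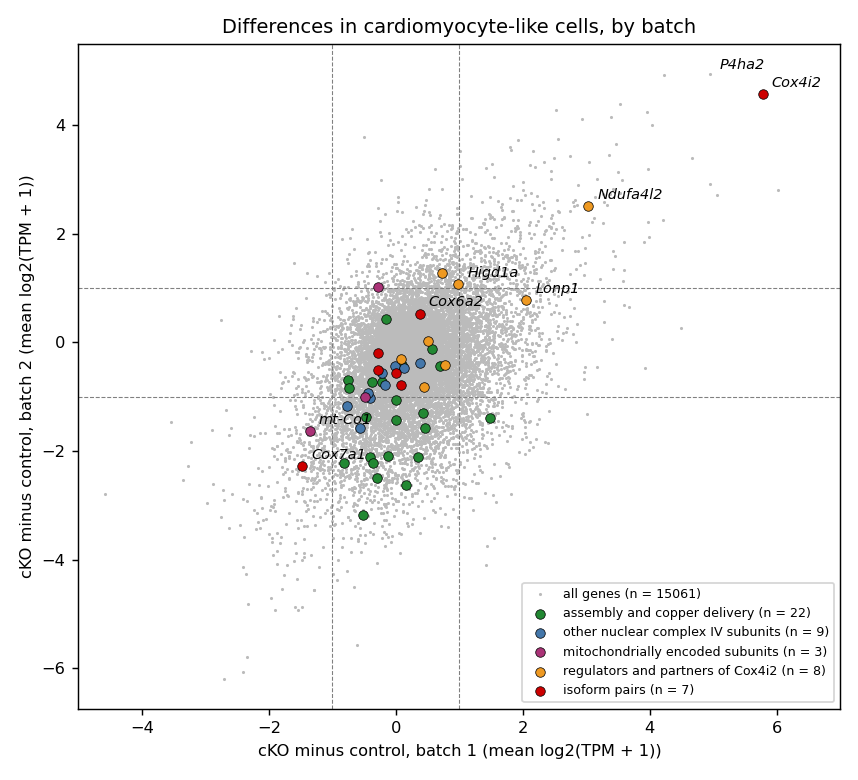
Difference of the mean log2(TPM + 1), cKO minus control, in cardiomyocyte-like cells of batch 1 (x axis) and batch 2 (y axis). Grey points are the 15061 genes, coloured points the complex IV lists, and dashed lines mark 1 log2 unit. Cox4i2 lies at 5.78 and 4.56 in the far upper right, Ndufa4l2 at 3.03 and 2.51, and Cox7a1 at −1.47 and −2.28.

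Since Cox4i2 varied among cKO cells, genes were ordered by their mean within-batch Spearman correlation with it over the 66 cKO cardiomyocyte-like cells (33 per batch), among 5918 genes with a TPM of at least 1 in at least 50% of them. These correlations are descriptions, as the points share library preparation and differ in depth. Cox4i2 itself correlated with the number of detected genes at 0.26 in batch 1 and 0.01 in batch 2, and with the mitochondrial share at −0.43 and −0.26. The most similar gene was Bsg (basigin, a partner of lactate transporters), at 0.73 and 0.57. P4ha2 followed with 0.68 and 0.57, then the nuclear receptor Rora (mean 0.60), the heparan sulphate proteoglycan Sdc4 (0.59) and Pafah1b3 (0.58). All 5 were also higher in cKO than in control cells, by 1.84, 5.14, 2.80, 2.01 and 1.53 pooled, with Sdc4 at 0.48 in batch 2. Over all genes, 30.98% were above 0 in both batches. The limit on detection was set in cKO cells alone, so genes that are low in control could enter through cKO. This count therefore says nothing about the 5 genes. The lowest correlations were those of Hspe1, the mitochondrial co-chaperonin, at −0.50 and −0.51, and of the ribosomal protein gene Rpl36al, at −0.49 and −0.47. Ndufa4l2, taken from the list above, had 0.44 and 0.61, and Higd1a had 0.27 and 0.52.

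**Figure D5:**
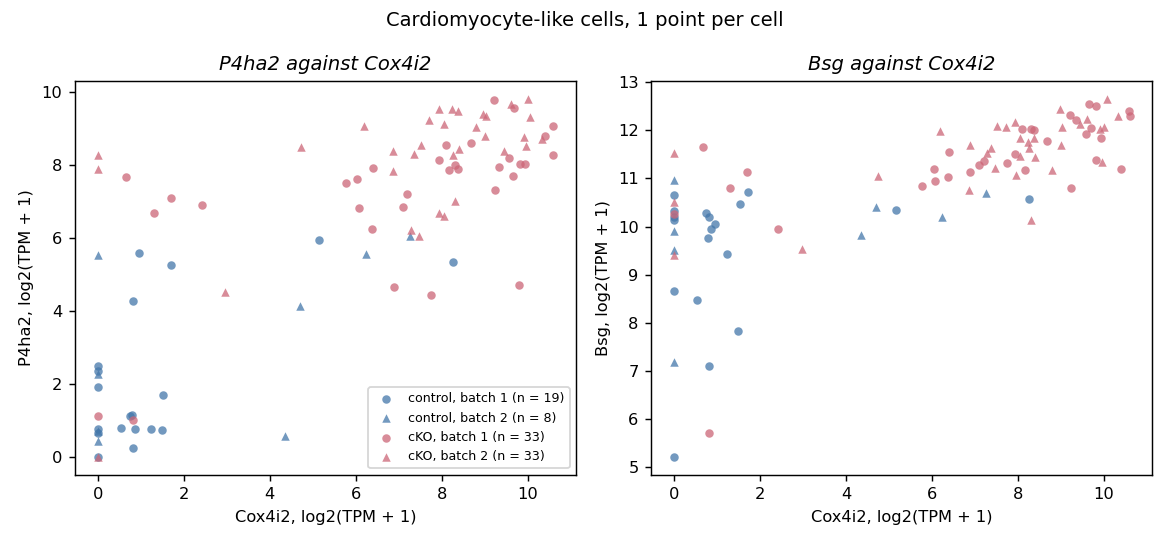
P4ha2 (left) and Bsg (right) against Cox4i2 in cardiomyocyte-like cells, all as log2(TPM + 1), with 1 point per cell and symbols for genotype and batch. Within cKO cells the Spearman correlation with Cox4i2 is 0.68 and 0.57 for P4ha2 and 0.73 and 0.57 for Bsg in batches 1 and 2. Most control cells lie at the lower left for P4ha2.

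The 4 ratios were also compared with each other over cKO cells, by Spearman correlation in batches 1 and 2. Because Cox8b was listed at 0 in 65 of 66 of these cells, the Cox8b to Cox8a ratio mainly mirrored the level of Cox8a. The Cox7a1 to Cox7a2 ratio correlated with it at −0.21 and −0.56, and with the level of Cox8a itself at 0.24 and 0.56. The first 2 values therefore say little about Cox8b. The Cox4i2 to Cox4i1 ratio correlated with the Cox7a1 to Cox7a2 ratio at 0.18 and 0.39, and with the Cox6a2 to Cox6a1 ratio at 0.28 and −0.13. The genes most like the Cox6a2 to Cox6a1 ratio were Ccdc50-ps (mean 0.47), a pseudogene, the deubiquitinase gene Usp13 (0.45), the complex I subunit gene Ndufb10 (0.41), the autophagy adaptor gene Fyco1 (0.40) and the myosin heavy chain gene Myh7 (0.39).

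Several members share stretches with other annotated genes, which limits how reads could be assigned. In the GENCODE M21 annotation, which need not be the one used for the table, 15.1% of the 31-base words of Cox4i1 also occur in Emc8, 23.8% of those of Cox6a1 in AC148174.2, 6.15% of those of Cox6a2 in the neighbouring gene Itgad and 4.13% of those of Cox7a2 in Gm13433. Cox4i2, Cox7a1, Cox8a and Cox8b share none, so the 2 members with the largest differences had no such word in common with another gene.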

How the data were processed

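Single-cell TPM values were deposited by the authors, who mapped Smart-seq2 reads to mm10 with Salmon (version and annotation not given in the sources used here) and kept cells by mapping rate and reporter. Of 170 labelled samples, 143 had a column, and the other 27 were not analysed here. TPM keeps no depth, so detected genes (TPM above 0) were given instead. Members and gene lists were chosen with earlier results of these data known. Cells were clustered (Ward, 5 clusters, 55 z-scored markers), and clusters were named by markers raised at least 1 log2 unit. Doublets were not called, since cells were picked by hand. Levels are log2(TPM + 1), which understates changes of low genes. Ratios are differences of such values within a cell. Genotypes were 1 sample each, so no test was run, and intervals are exact Clopper-Pearson, while the limit beside a count of 0 is 3 cells of the total. Scripts were tested on simulated data.

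Named genes were the members, the genes of 3 complex IV or regulator lists, the 2 highest and 2 lowest assembly factors, the neighbours of Cox4i2 in the order of differences, and the genes most like Cox4i2 (5 highest, 2 lowest) or the Cox6a2 to Cox6a1 ratio (5 highest). Coordinates came from GENCODE M21 (GRCm38). A sequence search of the members is not reported here. Python 3.11.15, pandas 2.3.3 and SciPy 1.17.1 were used.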

Additional observations from a re-analysis of the deposited data

How the results depend on the processing

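The 4 ratios and 8 levels were recomputed under 36 alternatives, which gave 432 values, of which 409 kept their direction and moved by less than the SD across cells. The Cox4i2 to Cox4i1 ratio stayed positive throughout, from 4.09 (pseudocount 10) to 8.01 (medians), and from 5.66 to 6.28 when the cells of a genotype that share a title number were left out in turn. With all cells in place of cardiomyocyte-like cells, the Cox7a1 to Cox7a2 ratio turned to 0.95 and the Cox6a2 to Cox6a1 ratio moved to 3.53. Levels then became 0.32 (Cox4i1), 0.46 (Cox6a1), 1.27 (Cox7a1), 0.32 (Cox7a2), 0.68 (Cox8a) and 3.98 (Cox6a2). Control cells of other classes enter that comparison. With 4 clusters the levels of Cox4i1, Cox6a1, Cox7a2 and Cox8a were 0.42, 0.43, 0.53 and 0.42, and with the marker gate 0.32, 0.80, 0.42 and 0.40. Batch 1 alone gave 0.0003 for Cox6a1 and 0.0779 for Cox7a2. Medians gave −0.0005 for Cox6a2 and 0.10 for the Cox8b to Cox8a ratio. Cells with at least 7000 detected genes gave −0.0425 for Cox6a2, and cells under 10% mitochondrial TPM −0.32 for Cox6a2 and −0.11 for its ratio. The cause was not tested for any of these changes. The 436 genes at least 1 log2 unit higher in each batch became 80 at 2 log2 units, 831 with a pseudocount of 0.1 and 147 with a pseudocount of 10, and the 399 lower genes became 36, 820 and 92. Cox4i2 was among the higher genes in each of these settings. Cox7a1 was among the lower genes in each except at 2 log2 units, where no member was. The Cox7a1 level difference of −1.92 was −0.37 with the marker gate, −0.87 with 4 clusters and −0.80 as the log2 ratio of mean TPM. As TPM keeps no depth, a value of 0 for Cox4i2, Cox7a1 or Cox8b can be a transcript missed in that cell. No paired analysis was possible because no source says that cells of both genotypes under a shared number have a common origin, and no test was run.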

Other observations

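Outside the comparison, 10 cells formed an unnamed cluster led by mitochondrial transcripts, with 3 cKO and 7 control cells. Mitochondrially encoded transcripts took a median of 18.6% of TPM in these 3 cKO cells and 53.97% in the 7 control cells. Cox4i2 had log2(TPM + 1) values of 0, 2.38 and 9.76 in the 3 cKO cells, and ran from 0 through a median of 0.99 to 7.24 in the control cells. The control cell at 7.24 had 10851 detected genes and 4.32% of TPM from mitochondrially encoded transcripts, the lowest share among the 7. Cox8b was listed at 0 in all 10.

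In 2 of the non-muscle classes, 1 cell each had the highest levels of both Cox6a2 and Cox7a1, while the medians of the endothelial-like cells were 0 for both. The highest Cox6a2 value was 9.27 among 5 erythroid-like cells and 8.04 among 22 endothelial-like cells, and the highest Cox7a1 value was 7.26 and 6.83 in the same classes.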
